A study of Mus musculus with 13 samples.

Results

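Single microglia from mice fed a high-fat diet (HFD, 60% fat) for 1 week were compared with microglia from mice on standard chow sorted into the same 192-well plates. Wells entered the comparison when the cell table gave the diet length as 7 days or 1 week, or the diet as control, and when the well held at least 1500 transcripts. This left 146 cells of 5 HFD replicates and 150 cells of 7 control replicates, 296 of the 2496 cells listed for the 13 plates of the series. All mice were C57BL/6J with no allele altered, and both arms were fed ad libitum. The groups shared the isolation steps: perfusion, dissociation of brain tissue, a Percoll gradient, and sorting of CD45lo CD11b+ cells, followed by CEL-Seq2, a 3′ tag method that counts unique molecular identifiers (UMIs). The labels give the tissue as brain and name several dissected regions, while the study's methods describe the sequenced cells as hypothalamic, so the region of the cells on these plates is uncertain. The age is not given for these cells, and the labels' treatment note names only 3 days of HFD, so the 1-week length rests on the table of cells. Cell names carry tags in weeks that no source used here explains: on plate 13 those of controls M11 and M12 differ from those of the other replicates.

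Plate 4 held control replicate M26 (7 of 24 wells kept) and HFD replicates M22 and M23 (18 and 17 of 24). Plate 7 held control M1 (50 of 96) and HFD M2 (55 of 96), and plate 9 held control M3 (50 of 96) and HFD M4 (44 of 96). Plate 13 held controls M11, M12, M15 and M16 (12, 10, 12 and 9 of 18) and HFD M13 (12 of 18). HFD replicate M14 on plate 13 kept 4 cells and was left out of the sums, which needed 5. Cells were summed per replicate, and the 12 sums held 24157 to 146746 transcripts. The table does not say whether each replicate is a separate mouse, so the p-values measure the spread between these sums only. Microglial markers were present in all sums, at 34140 to 44960 CPM (counts scaled to an equal total in every sum) for the 15-gene list.

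Microglia are the resident macrophages of the brain parenchyma. In the healthy brain they express a homeostatic set of receptors and enzymes (P2ry12, Tmem119, Cx3cr1) and very little major histocompatibility complex (MHC) class II. MHC class II molecules present peptides from the endosome to CD4 T cells: H2-Aa, H2-Ab1 and H2-Eb1 encode chains of the peptide-binding molecules, Cd74 the invariant chain that guides them through the cell, and H2-DMa a chain of the peptide exchange factor. Other brain macrophages and infiltrating monocyte-derived cells can carry far more MHC class II than microglia do. The class II promoters share an upstream module that includes a Y box, to which the factor NF-Y binds.

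The promoters of H2-Aa and H2-Eb1 are shown because these class II genes carried the lowest p-values of the comparison. The stretch for H2-Aa is chr17:34287824-34287943 on the minus strand and that for H2-Eb1 is chr17:34305747-34305866 on the plus strand (RefSeq, GRCm38.p6), each the 120 bases before the gene start, 5′ to 3′ on the strand of the gene. Capitals mark CTGATTGG, a match to the Y box.
H2-Aa: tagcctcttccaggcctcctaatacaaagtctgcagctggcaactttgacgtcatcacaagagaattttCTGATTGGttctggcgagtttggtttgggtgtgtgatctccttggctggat
H2-Eb1: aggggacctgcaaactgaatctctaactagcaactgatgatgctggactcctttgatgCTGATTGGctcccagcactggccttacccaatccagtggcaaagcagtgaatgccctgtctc
The match begins 51 bases before the start of H2-Aa and 62 bases before that of H2-Eb1. Searched on both strands in the 250 bases before each gene start, CTGATTGG was found in 1258 of 32851 promoters (3.83%), and its core ATTGG, which lies inside it, in 11120 (33.9%). The H2-Eb1 stretch holds a second core on the other strand. The match was chosen after these genes were seen to move together.

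Of 1700 genes with enough counts to be tested, 5 (0.294%) had an adjusted p under 0.05 in edgeR's quasi-likelihood fit with plate as a block, all 5 of them higher after 1 week of HFD. No gene was called lower (0%), and 96 genes had an unadjusted p under 0.05. The called genes were H2-Aa, H2-Eb1, H2-Ab1, Cd74 and Gm42418. DESeq2 on the same sums called 0 genes, with 47 at an unadjusted p under 0.05.

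**Figure D1:**
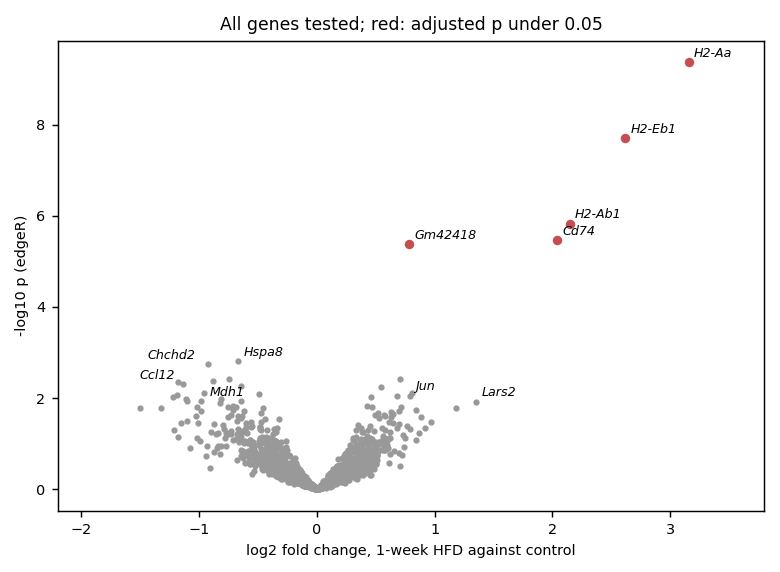
Each point is 1 of the 1700 genes tested, with the log2 fold change of 1-week HFD against control on the x axis and -log10 of the unadjusted p on the y axis. The 4 MHC class II genes stand at log2 fold changes from 2.04 to 3.16 and Gm42418 at 0.78, while the remaining genes form a cloud with unadjusted p of 0.00155 or more.

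H2-Aa (ENSMUSG00000036594, chr17:34282744-34287823), the alpha chain of I-A, measured 75.8 CPM in M22, 211 in M23, 341 in M2, 187 in M4 and 1391 in M13. Among the 7 controls it ran from 0 to 168 CPM with a median of 0, and 5 of them were at 0. HFD sums exceeded the control of their own plate on all 4 plates, although the 2 groups overlapped when plates were ignored. The log2 fold change was 3.16 ± 0.44 (SE; adjusted p = 7.2e-07, edgeR).

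H2-Eb1 (ENSMUSG00000060586, chr17:34305867-34316674), the beta chain of I-E, measured 152 CPM in M22, 290 in M23, 300 in M2, 187 in M4 and 776 in M13. The controls ran from 0 to 153 CPM with a median of 0, and the log2 fold change was 2.62 ± 0.42 (adjusted p = 1.71e-05, edgeR). H2-Ab1 (ENSMUSG00000073421, chr17:34257689-34269419), the beta chain of I-A, measured 177 CPM in M22, 333 in M23, 266 in M2, 171 in M4 and 841 in M13. Its controls ran from 0 to 235 CPM with a median of 14.8, and the log2 fold change was 2.15 ± 0.41 (adjusted p = 8.5e-04, edgeR). For both genes the mean of the HFD sums was above that of the controls on each plate, and M22 (177 CPM) lay below its plate's control M26 (235 CPM) for H2-Ab1.

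Cd74 (ENSMUSG00000024610, chr18:60803848-60812652) measured 25.3 CPM in M22, 132 in M23, 423 in M2, 219 in M4 and 1035 in M13, against 0 to 241 CPM in the controls, 4 of which were at 0. Its log2 fold change was 2.04 ± 0.41 (adjusted p = 0.00144, edgeR). On plate 4 both HFD sums lay below the control M26 (134 CPM), and on the other 3 plates the HFD sum was higher. The peptide exchange gene H2-DMa was tested and not called, with 154 to 225 CPM after HFD and 82.8 to 268 CPM in controls (log2 fold change -0.25 ± 0.29, adjusted p = 0.978, edgeR). H2-Oa and H2-Ob, which act in the same compartment, did not pass the filter on low counts. H2-DMb1, H2-DMb2 and Ciita, the master regulator of class II transcription, are not among the 17280 genes of the filtered table used for the fit and were therefore not tested in it. With all genes common to the 4 plates, 6 class II genes were tested. H2-DMb1 ranged from 56.8 to 162 CPM after HFD and from 44.2 to 214 CPM in controls, and Ciita was at or below 13.6 CPM after HFD and 67.0 CPM in controls.

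**Figure D2:**
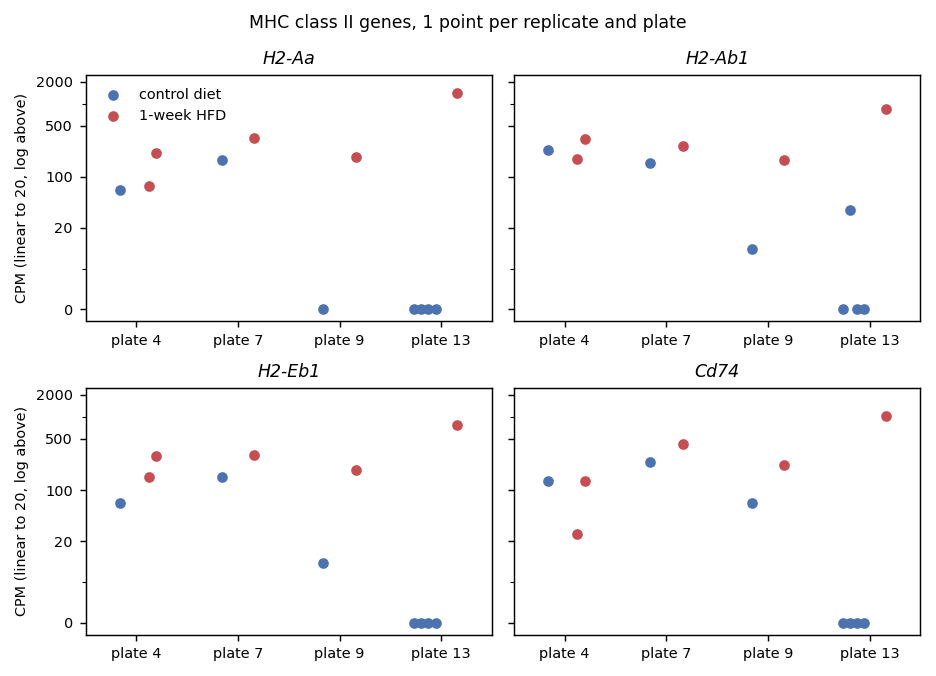
CPM of the 4 called class II genes on the y axis (linear to 20, logarithmic above) for each replicate, grouped by plate on the x axis, blue for control diet and red for 1-week HFD. The controls of plate 13 lie at 0 apart from M12 at 35.7 CPM for H2-Ab1, and M13 is the highest point of every panel (1391 CPM for H2-Aa), while on plate 4 the control lies between the HFD points for H2-Ab1 and above both for Cd74.

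The 4 class II transcripts were not spread evenly over the cells. In HFD replicate M13 a single cell held 124 of the 125 class II UMIs of its 12 cells, in M2 a single cell held 186 of 195 in 55 cells, and in M4 a single cell held 82 of 94 in 44 cells. Control M1 showed the same arrangement, with 84 of its 98 class II UMIs in 1 of 50 cells. In M23 the 110 UMIs were found in 16 of 17 cells, with 31 in the highest, and in M22 the 34 UMIs were found in 14 of 18 cells, with 4 in the highest. Cells with at least 20 class II UMIs numbered 5 of 146 after HFD (2 in M23, and 1 each in M2, M4 and M13) and 1 of 150 in controls. Outside the highest cell, the sums of plate 4 held 30 (M22) and 79 (M23) class II UMIs after HFD and 9 in the control, over 18, 17 and 7 cells. On the other plates M2, M4 and M13 held 9, 12 and 1 such UMIs, and controls M1 and M3 held 14 and 9 and the controls of plate 13 held 0.

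**Figure D3:**
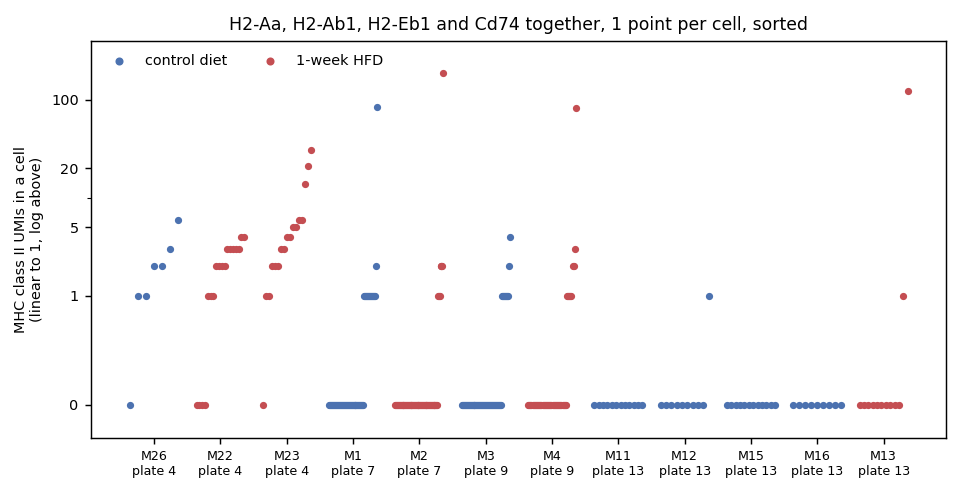
UMIs of the 4 called class II genes added up in each cell (y axis, linear to 1, logarithmic above), with the cells of each replicate sorted from low to high, blue for control diet and red for 1-week HFD. In M1, M2, M4 and M13 1 cell stands at 82 to 186 UMIs over a row of cells at or near 0, while the 3 replicates of plate 4 show a continuous spread up to 31 UMIs.

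The highest cells of M2, M13, M1 and M4 carried few microglial transcripts. P2ry12, the purinergic receptor that marks homeostatic microglia, was seen at 1, 0, 0 and 2 UMIs, Tmem119 at 1, 1, 2 and 0, and Sall1 at 0 in each, while the other cells of the comparison had a median of 7 P2ry12 UMIs in controls and 10 after HFD. The same 4 cells held 11 to 32 UMIs of Lyz2 (lysozyme of myeloid cells) and 2 or 3 of Mrc1 (mannose receptor), both at a median of 0 in the other cells, and 26 to 162 UMIs of Apoe (an apolipoprotein), at a median of 1 in the others. Ccr2, the chemokine receptor of inflammatory monocytes, was seen at 3, 7, 0 and 6 UMIs. Mrc1 is also on the list of border-associated macrophage markers and was seen in all 4 cells, at 3, 2, 2 and 3 UMIs. Of the same list, Cd163 was at 0 in each and Pf4 at 6, 0, 0 and 1. The 2 cells of M23 with 31 and 21 class II UMIs differed, with 22 and 49 UMIs of P2ry12, 72 and 74 of Cx3cr1, and 2 and 5 of Sall1. These genes were read in the 6 cells after their class II values were seen.

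Over whole sums the list of 8 border-associated macrophage markers ranged from 12.6 to 194 CPM after HFD and from 25.4 to 210 CPM in controls. The list of 6 monocyte markers ranged from 20.5 to 324 CPM after HFD and from 14.8 to 58.4 CPM in controls. The 324 CPM was that of M13 and came from 10 UMIs, 7 of them Ccr2 in its highest class II cell. The other HFD sums lay at 20.5 to 70.2 CPM. Of 6 neutrophil markers only 2 were in the tables of all 4 plates, and these were at 0 in all controls and reached 25.3 CPM after HFD. The HFD values came from 2 UMIs each in M22 and M23 of plate 4, and the other HFD sums were at 0. Lymphocyte markers, of which 4 of 7 were in the tables, ranged from 420 to 543 CPM after HFD and from 201 to 642 CPM in controls, nearly all of it Ighm (73 of 73 UMIs in M2 and 56 of 62 in M1). At least 3 UMIs of the border-associated macrophage list were found in 4 HFD and 2 control cells, of the monocyte list in 3 and 1, of the lymphocyte list in 34 and 18, of the oligodendrocyte list in 5 and 2 and of the neuron list in 1 and 3. No cell reached 3 UMIs of the astrocyte list (6 of 6 markers in the tables), or of the endothelial, pericyte and erythrocyte lists, for which only 2 of 5, 1 of 4 and 1 of 4 markers could be read. The part of cells of these types in the class II result was not tested.

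Leaving out M13 ended all 5 calls: H2-Aa then stood at a log2 fold change of 1.68 ± 0.44 (adjusted p = 0.339) and Cd74 at 0.84 ± 0.36 (adjusted p = 0.966, edgeR). M13 is the only HFD sum of plate 13, so that plate then holds no contrast of the diets. With the controls of plate 13 left out as well, H2-Aa and H2-Eb1 were called, and H2-Ab1 (1.06 ± 0.35, adjusted p = 0.646, edgeR) and Cd74 (0.85 ± 0.33, adjusted p = 0.834, edgeR) were not. Leaving out M23 left 2 calls, H2-Aa and H2-Eb1. H2-Aa and H2-Eb1 were also the 2 genes called when the 4 cells of M14, which held 0 class II UMIs, were added as a sum. With wells of at least 2500 transcripts, a minimum that the highest cells of M13 (1667) and M4 (2165) do not reach, the log2 fold changes were 0.94 ± 0.52 for H2-Aa, 1.15 ± 0.43 for H2-Eb1, 0.41 ± 0.42 for H2-Ab1 and 0.31 ± 0.42 for Cd74, and none of the 4 was called. With DESeq2 the class II log2 fold changes were larger, 5.45 ± 1.76 for H2-Aa, with an adjusted p of 0.998.

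Plate 4 differed from the others in how many cells held a class II transcript. At least 1 UMI was found in 104 of its 118 kept cells of all diets and diet lengths (88.1%), against 21 of 105 cells on plate 7, 18 of 94 on plate 9 and 11 of 120 on plate 13. The same plate held the cell with the most class II UMIs on these 4 plates, 1546 of the 1583 in 4-week HFD replicate M20, and 3-day HFD replicate M24 with 1053 UMIs, 370 of them in 1 cell. Every replicate on plate 4 had class II transcripts in most of its cells, control M26 in 6 of 7 and HFD M22 in 14 of 18. The part of this plate-wide signal in the values of M22, M23 and M26 was not tested. Without plate 4, 5 of the 6 genes called were the same 5, and the sixth was Hspa8.

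H2-Aa in replicates given other lengths of HFD on the same plates is set beside these values. On plate 4 the 3-day replicates measured 3045 and 132.5 CPM, the 4-week replicates 4592 and 412 CPM, the 1-week replicates 75.8 and 211 CPM and the control 67.0 CPM. On plate 13 the 3-day replicates measured 27.1 and 0 CPM, the 16-week replicates 26.8 and 0 CPM, 1-week replicate M13 1391 CPM and the 4 controls 0. On plate 4, replicates on the same diet for the same time thus lay far apart. When all lengths were fitted together, 0 genes were called for 1 week against control (103 of 2406 at an unadjusted p under 0.05), and H2-Aa stood at 2.54 ± 0.86 (adjusted p = 0.999, edgeR).

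Gm42418 (ENSMUSG00000098178, chr17:39846958-39848788) is annotated as a long noncoding RNA and overlaps a copy of the ribosomal RNA locus, so reads assigned to it may be ribosomal RNA. It measured 7427 CPM in M22, 8396 in M23, 4676 in M2, 3589 in M4 and 9606 in M13. The controls ran from 2531 to 7274 CPM with a median of 2986, and the highest was M26 of plate 4. HFD sums were above their plate's controls on all 4 plates, M22 the least so, and the log2 fold change was 0.78 ± 0.16 (adjusted p = 0.00144, edgeR). Unlike the class II genes on plates 7, 9 and 13, it was seen in nearly every cell, in 55 of 55 cells of M2 and 46 of 50 of M1. Its median share of a cell's transcripts was 0.394% in M2 against 0.135% in M1, 0.267% in M4 against 0.175% in M3, and 0.41% in M13 against 0.216% to 0.303% in the controls of plate 13. On plate 4 the medians were 0.597% and 0.713% after HFD and 0.561% in the control. Without the 12 cells that held at least 5 class II UMIs, Gm42418 was the 1 gene called of 1251 (adjusted p = 0.0123, edgeR), in a fit chosen after seeing the data. In the fit without cells with markers of other types or MHC class II it was not called, at 0.55 ± 0.18 (adjusted p = 0.869, edgeR), and 0 of 681 genes were, with 23 at an unadjusted p under 0.05. That fit dropped cells with at least 3 UMIs of a marker list, most often the lymphocyte list (34 HFD and 18 control cells). This list was nearly all Ighm, which was seen in 39 of 55 cells of M2 and 30 of 50 of M1. In M13 a single cell held 120 of 295 Gm42418 UMIs, and without M13 the log2 fold change was 0.37 ± 0.17 (adjusted p = 0.966, edgeR).

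Because fewer than 10 genes were called, the 8 genes with the smallest p in each direction are given as values, none of which passed the test. On the higher side they included Gm38042, Ncf1, Kdm2a, Jun, Mef2a, Lars2 and Srgap2, with adjusted p of 0.69 to 0.716 (edgeR). Ncf1 encodes a cytosolic subunit of the phagocyte NADPH oxidase. Ncf1 measured 657 CPM in M22, 570 in M23, 688 in M2, 520 in M4 and 1100 in M13, against 321 to 1035 CPM in controls (log2 fold change 0.54 ± 0.19). Its HFD mean was above the mean of the controls on all 4 plates, and the groups overlapped.

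Jun, an immediate early transcription factor, measured 114 CPM in M22, 79.0 in M23, 573 in M2, 219 in M4 and 356 in M13, against 0 to 372 CPM in controls (log2 fold change 0.79 ± 0.29). Mef2a, a transcription factor of the MEF2 family, measured 737 to 1100 CPM after HFD and 392 to 804 CPM in controls (0.46 ± 0.17). Kdm2a, a histone H3 lysine demethylase, measured 211 to 291 CPM after HFD and 41.4 to 254 CPM in controls (0.81 ± 0.30). Lars2, the mitochondrial leucyl-tRNA synthetase, ran from 16.2 CPM in M4 to 316 CPM in M23, with controls at 7.3 to 124 CPM (1.36 ± 0.53). The high Lars2 values lay in M13, M22 and M23, which were also the highest of the HFD sums for Gm42418.

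On the lower side the genes with the smallest p were Hspa8, Chchd2, Rps28, Xpr1, Ptma, Ccl12, Rtn3 and Mdh1, with adjusted p of 0.438 to 0.716 (edgeR). Hspa8, a constitutive heat shock protein of the Hsp70 family, measured 341 CPM in M22, 342 in M23, 498 in M2, 374 in M4 and 162 in M13, against 290 to 796 CPM in controls (log2 fold change -0.67 ± 0.20). HFD sums were below their controls on 3 plates and above on plate 4, and without plate 4 Hspa8 was called (log2 fold change -0.86 ± 0.20, adjusted p = 0.0229, edgeR). Ccl12, a chemokine of the monocyte chemoattractant family, ran from 32.3 to 205 CPM after HFD and from 0 to 1242 CPM in controls (log2 fold change -1.14 ± 0.39). On plate 4 both HFD sums (126 CPM in M22 and 132 in M23) lay above control M26 (0 CPM). In controls M16 and M11 single cells held 29 of 30 and 18 of 22 of its UMIs. Ccl12 was called without M26 (adjusted p = 0.00708) and with sums of at least 10 cells (adjusted p = 0.0136, edgeR). M26 has 7 cells and is the only control of plate 4, so both fits leave that plate without a contrast of the diets.

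Chchd2, a mitochondrial intermembrane space protein, measured 139 CPM in M22, 140 in M23, 232 in M2, 106 in M4 and 162 in M13, and 140 to 526 CPM in controls (log2 fold change -0.92 ± 0.28). Mdh1, the cytosolic malate dehydrogenase, measured 75.8 CPM in M22, 96.5 in M23, 130 in M2, 97.4 in M4 and 97.0 in M13, and 76.1 to 299 CPM in controls (-0.96 ± 0.35). For both genes the control M1 was the highest of all 12 sums. In M1, 18 and 12 of the 41 Mdh1 UMIs lay in 2 of the 50 cells.

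Control M1 contained 3 cells that differed from the rest of the comparison. They held 1654, 869 and 458 UMIs of Ttr, the thyroid hormone carrier that the choroid plexus produces in quantity, and 364, 88 and 129 UMIs of Enpp2, which makes lysophosphatidic acid. In the same cells P2ry12 was at 0 and Tmem119 at 0 or 1 UMIs, and Kl, a further choroid plexus gene, at 6 to 13 UMIs. Ttr was at 0 CPM in the other 6 controls and at 26310 CPM in M1, and it is not among the genes of the filtered table on which library totals were taken. HFD replicate M2 on the same plate showed 18 Ttr UMIs in 16 of 55 cells with at most 2 in a cell, and the other HFD sums showed 0. Nuclear genes of the respiratory chain took 2.7% to 4.94% of the transcripts of the 3 cells, against a median of 0.291% in the other control cells and 0.299% in the other HFD cells.

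Values of the energy metabolism lists are therefore given also without these 3 cells. Of 44 nuclear respiratory chain genes, 11 passed the filter, 0 were called, and all 11 lay below 0 with a median log2 fold change of -0.47, while the median of all 1700 genes was -0.01. Without the 3 cells 8 were tested, 3 above and 5 below 0, with a median of -0.14. Summed over the list the level was 7022 CPM in M1 and 3703 CPM without the 3 cells, in a range of 2568 to 3320 CPM for the other 6 controls. The HFD sums measured 2400 CPM in M22, 3246 in M23, 3592 in M2, 3662 in M4 and 2232 in M13. Without the 3 cells the control range thus held all HFD sums but M22 and M13, which lay below it.

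Among the members, Atp5b, Atp5a1 and Atp5h encode subunits of ATP synthase and Cox4i1 a subunit of cytochrome c oxidase. Atp5b had a log2 fold change of -0.68 ± 0.28 with all cells and -0.28 ± 0.28 without the 3 cells, and Atp5h -0.82 ± 0.32 and -0.43 ± 0.34. Atp5a1 had -0.60 ± 0.29 and -0.35 ± 0.29, and Cox4i1 changed sign, from -0.14 ± 0.31 to 0.14 ± 0.31. None of the 4 was called in either fit (adjusted p from 0.716 to 0.998, edgeR). Mdh1 moved from -0.96 ± 0.35 to -0.14 ± 0.44, and Chchd2 from -0.92 ± 0.28 to -0.49 ± 0.30. By contrast, Hspa8 stood at -0.57 ± 0.20, Rps28, a small ribosomal subunit protein, at -0.70 ± 0.24 and Ptma, prothymosin alpha, at -1.13 ± 0.41 without the 3 cells.

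**Figure D4:**
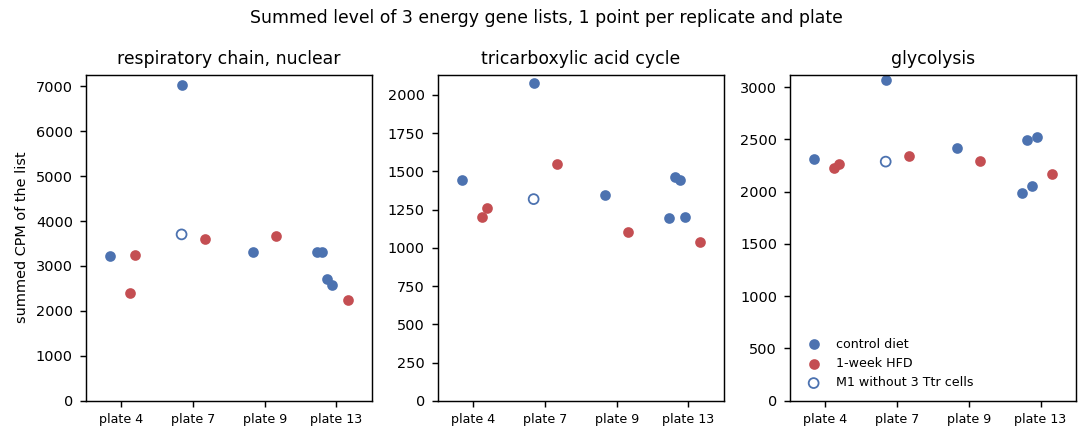
Summed CPM (y axis) of the nuclear respiratory chain, tricarboxylic acid cycle and glycolysis lists for each replicate by plate, blue for control diet and red for 1-week HFD, with an open circle for control M1 without its 3 Ttr cells. M1 stands apart at 7022 CPM for the respiratory chain and falls to 3703 CPM, next to the HFD replicate of its plate at 3592 CPM, when the 3 cells are left out.

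Of 24 tricarboxylic acid cycle genes 3 were tested (Mdh1, Sdha and Idh3g), 0 were called and all 3 lay below 0, with a median of -0.96 and of -0.54 without the 3 cells. With 1 sum per diet and plate 11 were tested, 2 above and 9 below 0 with a median of -0.28, and with no filter on low counts 22, 9 above and 13 below 0 with a median of -0.12. Idh3g, a subunit of isocitrate dehydrogenase, measured 54.5 to 89.3 CPM after HFD and 41.4 to 235 CPM in controls (log2 fold change -1.02 ± 0.45, adjusted p = 0.751; without the 3 cells -0.96 ± 0.45, adjusted p = 0.916, edgeR). Sdha, of succinate dehydrogenase, had -0.75 ± 0.40 and -0.54 ± 0.42. The summed list of 22 measured genes was 1035 to 1547 CPM after HFD and 1193 to 2080 CPM in controls, 1318 CPM for M1 without the 3 cells.

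Glycolysis had 7 of 22 genes tested, 0 called, 2 above and 5 below 0, with a median of -0.35 that was -0.10 without the 3 cells. The summed list measured 2167 to 2345 CPM after HFD and 1988 to 3066 CPM in controls, with M1 the highest and at 2287 CPM without the 3 cells. Gapdh measured 225 to 388 CPM after HFD and 214 to 663 CPM in controls (log2 fold change -0.35 ± 0.23, and -0.18 ± 0.23 without the 3 cells). Ldhb, a subunit of lactate dehydrogenase, measured 129 to 316 CPM and 164 to 414 CPM (-0.65 ± 0.25, adjusted p = 0.716; without the 3 cells -0.41 ± 0.26, adjusted p = 0.989, edgeR), and Slc2a5, a fructose transporter typical of microglia, 316 to 518 CPM and 235 to 570 CPM (0.45 ± 0.22). Hk2, a hexokinase, measured 184 to 356 CPM after HFD and 203 to 324 CPM in controls (-0.07 ± 0.25).

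Genes of the mitochondrial genome were abundant, and 8 of 15 were tested and 0 called, with a median of -0.14 that stood at 0.00 without the 3 cells. Mitochondrial dynamics and uncoupling had 4 of 16 tested and 0 called, with a median of -0.15 that was -0.09 without the 3 cells. That list summed to 1429 to 1693 CPM after HFD and 1283 to 2087 CPM in controls, with M1 the highest and at 1839 CPM without the 3 cells. Ucp2, the uncoupling protein of microglia, measured 276 to 550 CPM after HFD and 332 to 584 CPM in controls, and Mff, a receptor for the fission protein Drp1, 52.6 to 240 CPM and 0 to 203 CPM. Of 29 genes of fatty acid uptake and oxidation 27 were in the filtered table, and 0 passed the filter on low counts of the fit. The highest of them, Hadha, of the mitochondrial trifunctional protein, measured 61.4 to 114 CPM after HFD and 70.2 to 178 CPM in controls, and the summed list measured 746 to 988 CPM against 745 to 1168 CPM. The highest control was M1, at 838 CPM without the 3 cells, which left M26 (972 CPM) as the highest control and below the HFD replicate M2 (988 CPM). With 1 sum per diet and plate 6 of them passed the filter, 1 above and 5 below 0 with a median of -0.29, and 0 were called.

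Homeostatic genes were tested in full, 18 of 18, with 0 called, 12 above and 6 below 0 and a median of 0.11. Over the alternatives this median stayed above 0 and ran from 0.007 to 0.24. Their summed level was 45630 to 52030 CPM after HFD and 41630 to 50100 CPM in controls, and M1, the lowest of the controls, stood at 46340 CPM without the 3 cells. Csf1r, the receptor for colony stimulating factor, measured 5911 to 7036 CPM after HFD and 5606 to 7078 CPM in controls, Cx3cr1, the fractalkine receptor, 4010 to 8561 CPM and 3993 to 6233 CPM, and Sparc, a matricellular protein, 4736 to 6080 CPM and 3858 to 5799 CPM. Disease-associated genes had 8 of 18 tested, 0 called and a median of -0.10. Apoe ranged from 1003 to 5030 CPM after HFD and from 71.3 to 7744 CPM in controls. A single cell held 179 of the 183 Apoe UMIs of M16, the highest control, 53 of 62 in M11 and 26 of 31 in M13.

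**Figure D5:**
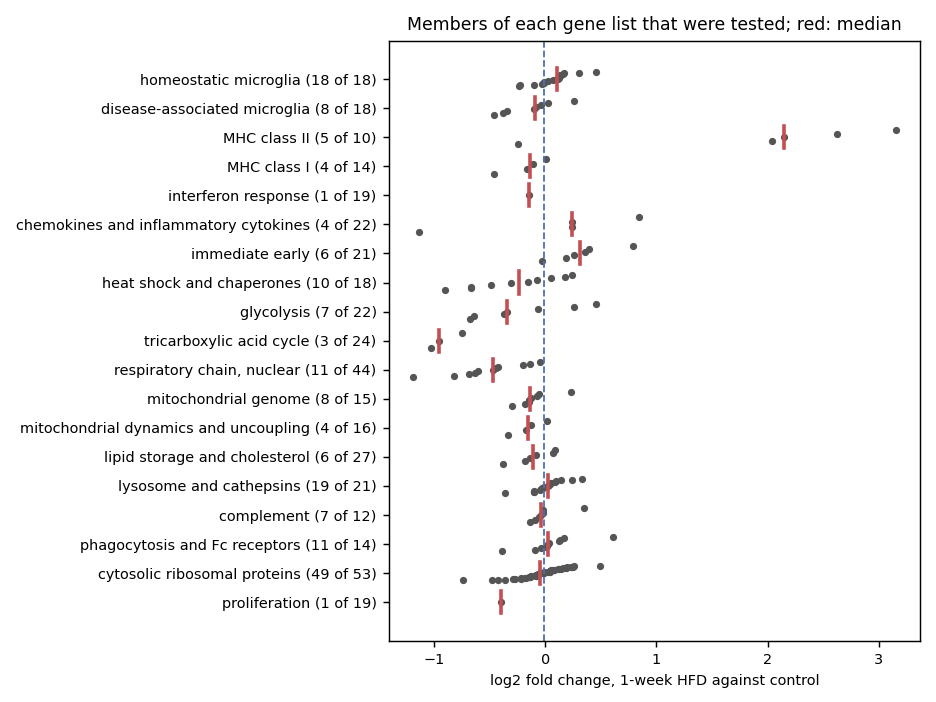
Log2 fold change of 1-week HFD against control (x axis) for every tested member of 19 gene lists (y axis, with tested of listed members), with the list's median in red and the median of all genes tested as a dashed line at -0.01. The MHC class II list has 4 points above 2 and H2-DMa at -0.25, and all 11 points of the respiratory chain list lie to the left of 0.

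Other immune lists had no called member. MHC class I, which presents peptides of the cytosol, had 4 of 14 genes tested and a median of -0.14, and B2m, its light chain, measured 2360 to 3994 CPM after HFD and 2309 to 4512 CPM in controls. The interferon response list had 1 of 19 tested, Bst2, and its summed level of 356 to 661 CPM after HFD lay within the 235 to 1615 CPM of the controls. On 3 of 4 plates the HFD sum was the lower, and on plate 4 both HFD sums were above the control. With no filter on low counts 17 interferon genes were fitted, 1 above and 16 below 0 with a median of -0.72. Chemokines and inflammatory cytokines had 4 of 22 tested, with Ccl9 at 0.84 ± 0.48 and Ccl12 at -1.14 ± 0.39. Immediate early genes had 6 of 21 tested, 5 above 0, with a median of 0.31 and a summed level of 1452 to 2904 CPM against 737.5 to 2577 CPM. Heat shock and chaperone genes had 10 of 18 tested and a median of -0.23, which was -0.09 without the 3 cells.

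Lysosome and cathepsin genes had 19 of 21 tested and a median of 0.02, and Cst3, the cathepsin inhibitor cystatin C, measured 24970 to 29500 CPM after HFD and 21630 to 28060 CPM in controls. Complement had 7 of 12 tested, 1 above and 6 below 0, and a median of -0.04, with C1qa, a chain of the initiating complex, at 1941 to 4090 CPM and 1869 to 2613 CPM. Among the alternatives the complement median ran from -0.20 to 0.08 and thus lay on either side of 0. Phagocytosis and Fc receptor genes had 11 of 14 tested and a median of 0.03. Trem2, the lipid-sensing receptor of microglia, measured 873 to 1445 CPM after HFD and 464 to 1180 CPM in controls. Ribosomal proteins had 49 of 53 tested and a median of -0.04, lipid storage and cholesterol genes 6 of 27 and -0.11, and proliferation 1 of 19. The ribosomal median changed sign among the alternatives, which ran from -0.12 to 0.10. None of the genes of these lists was called.

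The number of transcripts per cell is given as a description of depth, with no test, since wells were chosen by this number (at least 1500). The share of wells kept was 75.0% and 70.8% after HFD and 29.2% in the control on plate 4, and 45.8% to 66.7% after HFD and 50.0% to 66.7% in controls on the other plates, M14 aside (22.2%). The medians of the kept cells per replicate were 4357 and 5004 after HFD and 4823 in the control on plate 4, 2520 and 2547 on plate 7, 2816 and 2422 on plate 9, and 2635 after HFD and 2628 to 3803 in the controls on plate 13. Averaged over plates, HFD minus control was -86.8 transcripts.

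The distance between cells of a replicate was compared to see whether cells were more unlike one another after HFD. With each cell thinned to 1000 UMIs, the mean of 1 minus the Pearson correlation over 2000 variable genes was 0.436 to 0.467 after HFD and 0.407 to 0.507 in controls. HFD minus control averaged 0.00396 over the plates (two-sided exact permutation of diets within plates, p = 0.817 over 60 assignments, n = 5 and 7). The smallest two-sided p that the 60 assignments allowed was 0.0167. The highest value was that of control M1 at 0.507, and without plate 7, where M1 and M2 are the only replicates, the difference was 0.0197 (exact permutation p = 0.0667 over 30 assignments).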

How the data were processed

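The authors sorted single CD45lo CD11b+ cells into plates, prepared CEL-Seq2 libraries, mapped reads to mm10 with STAR and counted them with featureCounts. Per the deposited plate tables, values are estimated counts: UMIs corrected for tag collisions (4096 tags), and all inverted to whole UMIs within 1%. Library totals used the 17280 genes of the deposited filtered table that all 4 plates hold. Wells with at least 1500 transcripts were kept, with no doublet caller and no cell name on more than 1 plate (0). Estimated counts were summed per replicate and plate (at least 5 cells), rounded, filtered (filterByExpr), scaled by TMM and fitted with edgeR 4.0.16 (quasi-likelihood, R 4.3.3), design plate plus diet, Benjamini-Hochberg threshold 0.05. The SE is the log2 fold change over the square root of F. CPM are scaled to the total of the 17280 genes. DESeq2 1.42.0 was an alternative. Scripts were tested on simulated data. The text names up to 15 called genes per direction, the 8 smallest p per direction when fewer than 10 were called, and up to 4 abundant members per list; some named by this rule are not reported here. The comparison, lists and tests were chosen with earlier results of these data known. Positions are from GENCODE M21 (GRCm38). Plates hold replicates of other diet lengths, which entered 1 alternative only. Plate 5 was outside the rule.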

Additional observations from a re-analysis of the deposited data

Results flagged for a closer look

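Among 86 sets of 5 HFD or 7 control sums, 13 had a highest sum set apart from the rest by more than Dixon's 95% value. That value is set for about 1 flag in 20 independent, normally distributed sets. These sets share genes and cells, and their genes were named for small p in the same data. The 13 flags are therefore a description and cannot be set against that rate. HFD replicate M13 was flagged for H2-Aa (1391 CPM, next 341), H2-Eb1 (776 CPM, next 300), H2-Ab1 (841 CPM, next 333) and the summed MHC class II list (4237 CPM, next 1609). Control M1 was flagged for H2-Aa (168 CPM, next 67.0), the summed nuclear respiratory chain (7022 CPM, next 3320), the summed tricarboxylic acid cycle (2080 CPM, next 1462) and the mean distance between its cells (0.507, next 0.450). Control M26 of plate 4 was flagged for Gm42418 (7274 CPM, next 3602) and Xpr1, a phosphate exporter (637 CPM, next 285). Control M16 was flagged for Ncf1 (1035 CPM, next 558) and Ccl12 (1242 CPM, next 514). HFD replicate M23 was flagged for the summed proliferation list (728 CPM, next 417).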

How the results depend on the processing

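The count of 5 called genes stayed within 1.5 times in 17 of 31 alternatives: 5 with RLE size factors and without Ttr cells, 6 with sums of at least 10 cells, all common genes or without plate 4, 4 with M15 and M16 as the only controls of plate 13, and 5 or 6 without 10 of the 12 replicates. With 1 sum per diet and plate, which pairs the diets by plate, it was 4, and Gm42418 was lost (log2 fold change 0.63, adjusted p = 0.102, edgeR). It was 0 with DESeq2, without the plate block, with all lengths of HFD in 1 fit and without cells with markers of other types or MHC class II. It was 12 with no filter on low counts (5 higher, 7 lower, among them Enpp2) and 2 with sums of at least 3 cells. With wells of at least 1000 transcripts it was 2, and with at least 2500 it was 1. It was 2 without plate 13, and 3 each without plate 7 or 9. Without the cells that held at least 5 class II UMIs it was 1. The fits that leave out class II cells picked them by the class II genes, so they do not test the class II calls. Leaving out each replicate gave 0 to 6 calls, 0 without M13 and 2 without M23. No called gene changed direction in any fit that tested it.

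Hk2 changed sign to 0.047 with no filter and 0.040 without plate 9, and ran from -0.19 to 0.087 over the replicates left out. Cox4i1 changed sign to 0.14 without the Ttr cells and 0.23 without plate 7, and ran from -0.54 to 0.32. Transcripts per cell turned to 74.6 without plate 13 and ran from -246.9 to 74.6. The distance turned to -0.0110 with wells of at least 1000 transcripts, -0.00780 with at least 2500, -0.00855 with no thinning and -0.00787 without plate 13, and ran from -0.00787 to 0.0197. The cause of these shifts was not tested. The alternatives with sums of at least 3 cells, with M15 and M16 as the only controls of plate 13 (the same tag in their cell names as M13; Gm42418 lost), and without MHC class II or Ttr cells were chosen after seeing the data. A fit with correlation within replicates and 1 sum per replicate over plates were not run, since no replicate occurs on 2 of these plates. No analysis paired by replicate was possible because no replicate number occurs under both diets.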
